A study of Mus musculus with 28 samples.

Results

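The genes described here are 10 transcription factors of mouse embryonic stem cells (mESCs): *Pou5f1*, which encodes Oct4, with *Nanog*, *Sox2*, *Klf4*, *Klf2*, *Esrrb*, *Tfcp2l1*, *Zfp42*, *Tbx3* and *Prdm14*. They were chosen by name as the core and naive pluripotency factors, and joined between tables by gene identifier. No measured value served as the rule, but earlier results of these data were known when they were chosen. All 10 had a value in every library, among 15384 genes with values. The study lowered *Ssrp1*, a subunit of the histone chaperone FACT, in mESCs of the E14 line. The cells were grown on gelatin in serum with leukaemia inhibitory factor (LIF). The KD group was transfected with lentiviral vectors for a combination of *Ssrp1* short hairpin RNAs, and the control group with a scramble vector. From 48 h after transfection both groups were kept in 2 µg/ml puromycin for 24 h and then collected, so they share the vector, the transfection and the selection, and the KD is a short depletion and not a knockout. Total RNA with ERCC spike-in RNA added gave 4 libraries per group. Chromatin-bound RNA of E14 cells (2 libraries) and ChIP-seq peak lists of both FACT subunits, SSRP1 and SUPT16, were also used.

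Oct4 and Sox2 bind DNA side by side as a pair, and with Nanog they form the core of the network that keeps mESCs undifferentiated. Around this core lie the factors of the naive state, which LIF, through Stat3, and other signals keep on: the zinc finger factors Klf4 and Klf2, the orphan nuclear receptor Esrrb, the Grainyhead-family factor Tfcp2l1 and the T-box factor Tbx3. Zfp42, also called Rex1, is a widely used marker of the naive state, and Prdm14 is a repressor that holds back FGF signalling and DNA methylation. FACT binds nucleosomes and helps polymerases pass through them while nucleosomes are kept intact.

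The control libraries held 4602278 to 6680919 reads on genes and the KD libraries 9433193 to 19856032, so that depth differed by group. A member had from 61 reads (*Prdm14*, control replicate 3) to 11411 reads (*Pou5f1*, KD replicate 4) in a library. *Ssrp1* was lower in every KD library, at 24.1 to 28.9 against 223 to 261 in control, in library-size scaled values. *Supt16*, which encodes the other subunit, was at 296 to 346 in control and 481 to 529 in KD (log2 difference 0.66 ± 0.06, not called). The deposited library-size values summed to 825584 to 909417 in control and to 1137293 to 1182584 in KD, so they are not CPM, counts scaled to one fixed total in every library. The members took 0.142 to 0.159% of the reads in control and 0.223 to 0.234% in KD. The replicates are described as biological, but whether each came from its own culture or transfection is not said, so the p-values measure the spread between these libraries.

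The first question was how the core factors stood after loss of *Ssrp1*. *Pou5f1* had library-size values of 272, 312, 283 and 278 in the 4 control libraries and of 686, 668, 677 and 662 in the 4 KD libraries. The lowest KD library was thus above 2 times the highest control library, with a KD over control fold of 2.35 on the log2(value + 0.5) scale (log2 difference 1.23 ± 0.06 SE, limma adjusted p = 6.57e-17). *Sox2*, the HMG-box partner of Oct4, measured 150, 163, 147 and 143 in control and 363, 364, 357 and 382 in KD. Its groups lay far apart as well, at a log2 difference of 1.28 ± 0.06 (limma adjusted p = 2.73e-17). *Nanog*, a homeobox factor, had 126, 131, 131 and 136 in control and 271, 278, 283 and 258 in KD. Its difference of 1.05 ± 0.05 (limma adjusted p = 9.57e-16) was just past the threshold of 1. All 3 core genes rose, and no control library overlapped a KD library for any of them.

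Among the naive factors the rises were unequal. *Prdm14* was the lowest member in control, at 10.6, 15.8, 10.9 and 10.4, and stood at 49.8, 55.2, 56.2 and 57.6 in KD. Its 4.49-fold rise (log2 difference 2.17 ± 0.11, limma adjusted p = 5.48e-16) was the largest of the members, and only 46 of all genes had a larger log2 difference. *Klf2* had 36.2, 40.8, 32.7 and 44.6 in control and 98.4, 92.5, 82.2 and 97.2 in KD, a log2 difference of 1.26 ± 0.08 (limma adjusted p = 1.28e-13). *Zfp42* had 248, 249, 238 and 223 in control and 549, 540, 569 and 520 in KD, a difference of 1.18 ± 0.06 (limma adjusted p = 1.31e-16). These 3 genes passed both thresholds, an absolute log2 difference above 1 and an adjusted p below 0.01.

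The other 4 naive factors passed the adjusted p but not the fold threshold, and are not called. *Esrrb* had 97.6, 101, 94.7 and 103 in control against 173, 177, 174 and 180 in KD, with a log2 difference of 0.83 ± 0.06 (limma adjusted p = 1.81e-13). *Klf4* had 46.8, 47.3, 52.9 and 55.4 against 86.8, 90.3, 82.2 and 97.1, with 0.81 ± 0.07 (limma adjusted p = 4.78e-11). For both genes every KD library lay well above every control library. *Tfcp2l1* had 213, 179, 194 and 199 in control against 268, 263, 259 and 287 in KD, and a difference of 0.46 ± 0.06 (limma adjusted p = 8.24e-08). *Tbx3* came last, with 91.3, 97.6, 85.8 and 93.8 against 111, 111, 98.6 and 120, a 1.19-fold difference (log2 0.25 ± 0.06, limma adjusted p = 0.000899). Its groups nearly met, since the lowest KD library lay 1.04 above the highest control library.

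**Figure D1:**
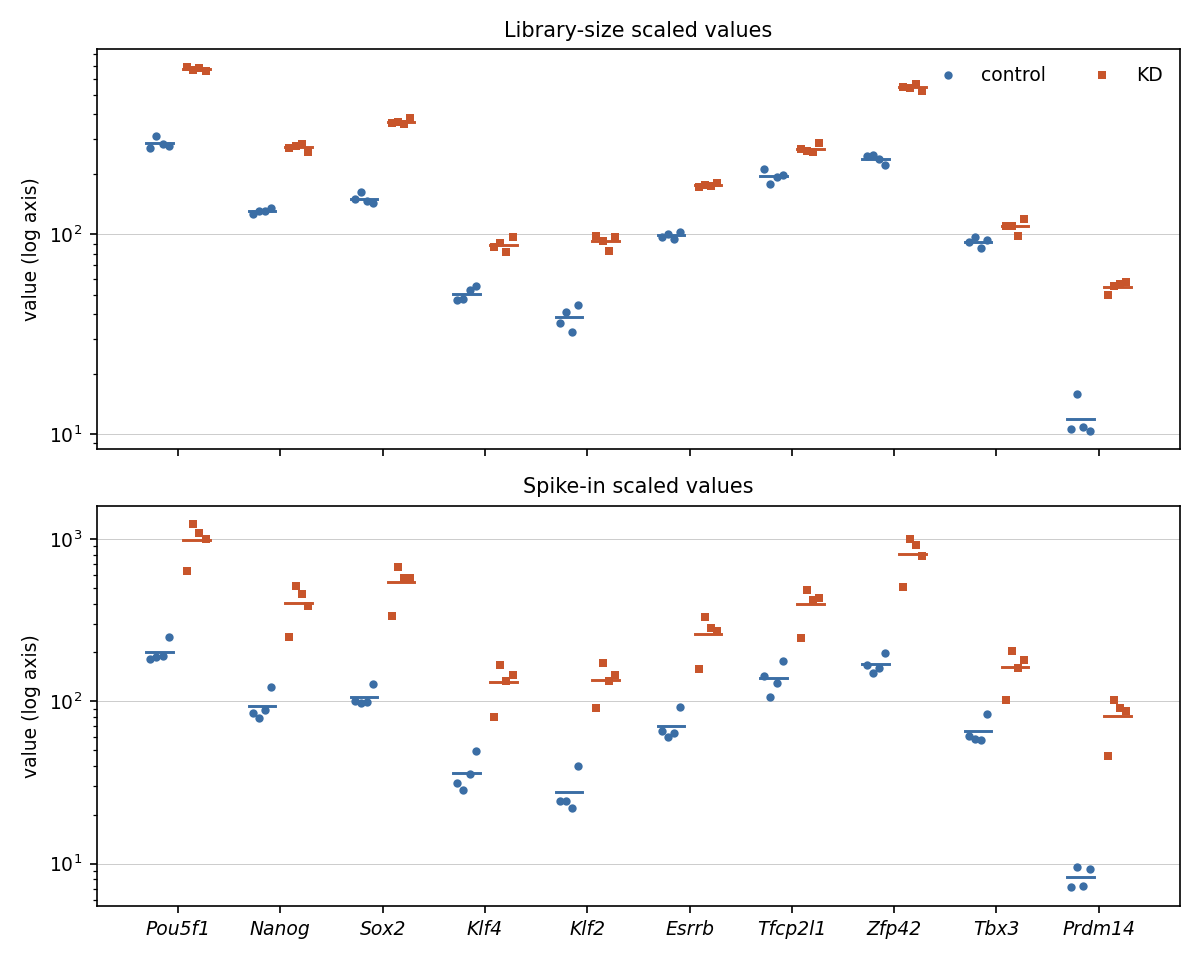
Values of the 10 genes in each library on a log axis, scaled by the authors to library size (upper panel) or to spike-in RNA (lower panel); circles are the 4 control libraries, squares the 4 KD libraries, in replicate order, and bars the group means. All KD libraries lie above all control libraries for every gene in both panels, and KD replicate 1 is the lowest KD library of every gene in the spike-in panel.

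In counts, 6 of the 10 factors were called higher and 0 lower in KD, and 4 were not called. Over all genes 8.07% were called higher and 20.6% lower. The members' median log2 difference was 1.12, beside a median of -0.03 over all genes. All 10 had KD libraries wholly above the control libraries, against 35.8% of all genes. In these bulk libraries, a larger share of cells with a transcript and more of it per cell cannot be told apart.

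The scaling sets the zero point of these differences, so the members were set beside the median of all genes under each. In the deposited spike-in scaling, all 10 were called higher, where 48.1% of all genes were, and their KD libraries again lay wholly above control, as in 48.8% of all genes. The members' log2 differences ran from 1.27 (*Tbx3*) to 3.17 (*Prdm14*), with a median of 2.14 beside 0.95 for all genes. Their SEs were 0.287 to 0.289. All genes of a library share its spike-in factor, so the 10 calls are not independent and their p-values do not allow for this. KD replicate 1 had the lowest spike-in value of the KD libraries for each member, for example 631 for *Pou5f1* beside 1237, 1094 and 995 in the others. Without it the members' median was 2.35 and that of all genes 1.16. When the reads were taken as CPM of the table's total, the median of all genes was -0.45 and *Prdm14* was the 1 member called, at 1.75, while *Tbx3* had a log2 difference of -0.18. In CPM 2.23% of all genes were called higher. With quantile normalisation *Prdm14* (2.33) and *Klf2* (1.005) were called, and *Tfcp2l1* (-0.08) and *Tbx3* (-0.10) lay below 0 and below the median of all genes (0.05). Under it 9.87% of all genes were called higher. Of all genes called, 28.2% were higher on library-size values, 87.2% on spike-in values, 47.8% after quantile normalisation and 6.81% in CPM. Relative to the median of all genes, the scalings that multiply a whole library by 1 factor left the members nearly in place: *Pou5f1* stood 1.27 above it on library-size values, 1.31 above it on spike-in values and 1.25 above it in CPM, and *Tbx3* 0.29, 0.32 and 0.27 above it. After quantile normalisation *Pou5f1* stood 0.52 above it.

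**Figure D2:**
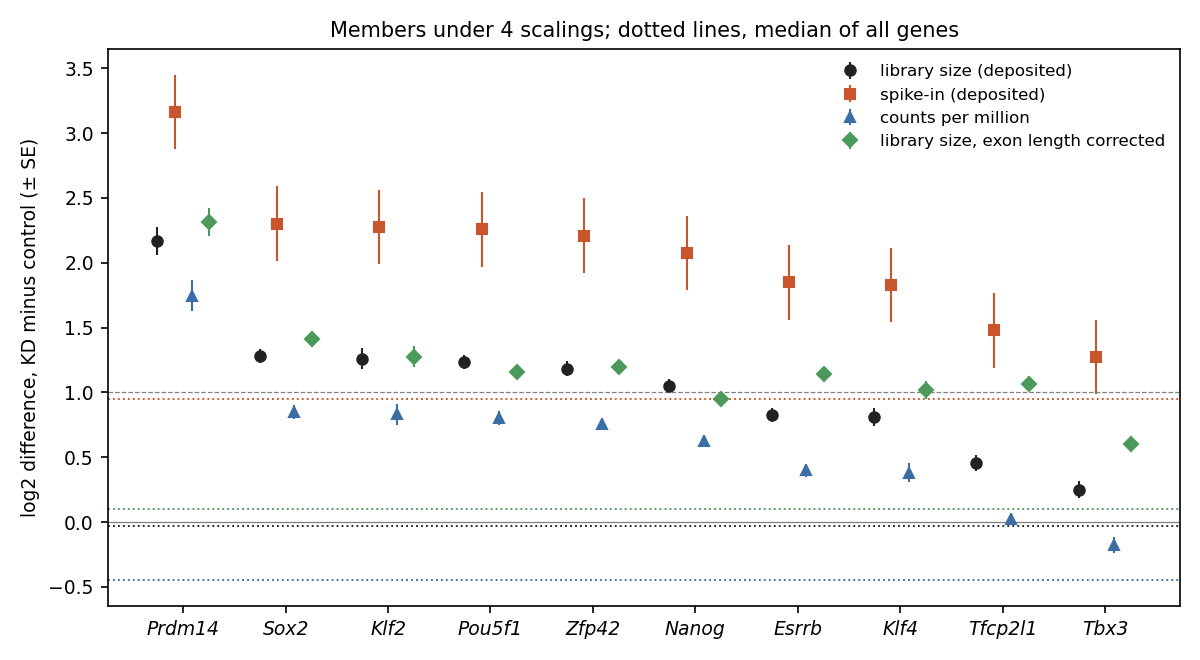
Log2 difference of KD minus control (± SE from limma, 4 libraries a group) for the 10 genes under 4 scalings, with the median of all genes under each as a dotted line in the same colour and the fold threshold as a dashed grey line. The order from *Prdm14* (2.17) to *Tbx3* (0.25) on library-size values is seen in each deposited scaling, while the level of the whole set shifts with the scaling.

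The members differ widely in exon length, so the fit was repeated with the trend of the log2 difference against exon length over all genes taken out. *Tfcp2l1*, with 9270 bases of exon the longest member, moved most, from 0.46 to 1.07, and was then called. *Esrrb* (1.14) and *Klf4* (1.02) were called as well, while *Nanog*, with 1356 bases the shortest, moved from 1.05 to 0.95 and was not. *Tbx3* reached 0.60 and was not called. In that fit 8 of the 10 were called higher, beside 8.80% of all genes, and the median of all genes was 0.10.

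A ratio of 2 genes within a library does not depend on how that library is scaled. The 45 pairs of members were therefore compared as log2 ratios within each library, between the 4 control and the 4 KD libraries. The ratio differed for 35 of 45 pairs (77.8%) at the smallest p that 70 splits allow (two-sided exact permutation test, p = 0.0286, adjusted over the 45 pairs 0.0367). Of all pairs of genes, 71.9% had ratios that did not overlap between the groups, so the share among members is near that of genes in general. *Prdm14* rose against all 9 others, most against *Tbx3*, where the log2 ratio of *Tbx3* to *Prdm14* was 2.92 ± 0.24 (SD, n = 4) in control and 1.00 ± 0.14 in KD. *Tbx3* fell against all 9, and *Tfcp2l1* against 8. The ratios were not corrected for exon length. With the length trend taken out of the fit, the log2 difference of *Tfcp2l1* (1.07) was above those of *Klf4* (1.02) and *Nanog* (0.95). *Prdm14* (2.31) was still highest and *Tbx3* (0.60) lowest in that fit.

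Among *Pou5f1*, *Sox2*, *Klf2* and *Zfp42*, none of the 6 pairs was called by this test. The log2 ratio of *Pou5f1* to *Sox2* was 0.92 ± 0.05 (SD, n = 4) in control and 0.88 ± 0.06 in KD, a difference of -0.05 ± 0.04 SE. That of *Sox2* to *Klf2* differed by 0.02 ± 0.11. *Nanog* fell slightly against *Sox2* (-0.23 ± 0.07) and against *Pou5f1*, where the ratio rose by 0.18 ± 0.05. Its pairs with *Klf2*, *Zfp42* and *Klf4* were not called. The ratio of *Klf4* to *Esrrb* overlapped between the groups, with a difference of -0.02 ± 0.07. A pair without a call is not shown to be alike: the largest difference among those 10 pairs was 0.24, and the smallest among the 35 was 0.18.

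**Figure D3:**
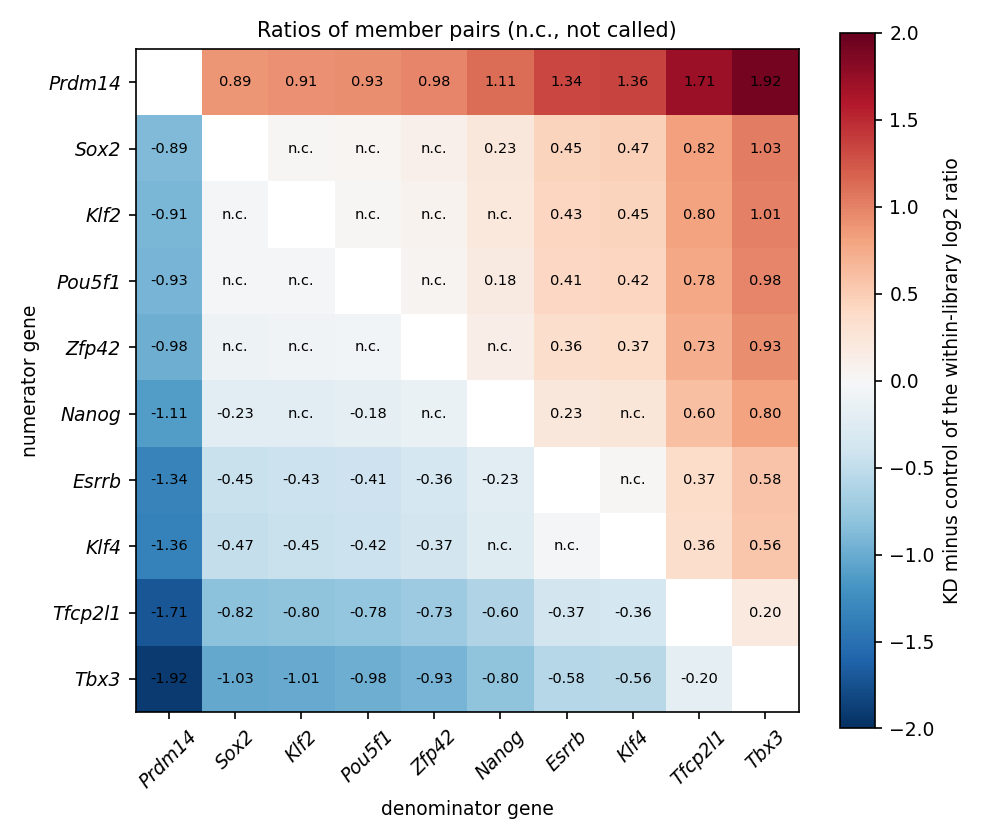
KD minus control of the within-library log2 ratio for each pair of the 10 genes, row gene over column gene, as colour and number; n.c. marks the 10 pairs not called by the exact permutation test (adjusted p of 0.05 or more). *Prdm14* rises against all 9 others, *Tbx3* falls against all 9, and the block of *Sox2*, *Klf2*, *Pou5f1* and *Zfp42* has 6 pairs without a call.

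Levels of different genes were compared per kb of exon. In control, *Pou5f1* was highest at 198 ± 12.3 (SD, n = 4; library-size value per kb), followed by *Zfp42* at 133 ± 6.65, *Nanog* at 96.7 ± 2.94 and *Sox2* at 61.4 ± 3.47. None of these 4 overlapped its neighbour. With the longer RefSeq exon length of *Nanog* its mean was 58.5, below *Sox2* at 61.2, so the order of these 2 genes depends on the length used. *Esrrb* (21.4), *Klf2* (21.2) and *Tfcp2l1* (21.2) overlapped and have no order among them. *Tbx3* (18.1) and *Klf4* (16.6) also overlapped, and *Prdm14* was last at 4.61 ± 1.00, with *Pou5f1* 43-fold above it. *Pou5f1* stood above 98.1% of all genes and *Prdm14* above 32.3%. In KD the first 4 places were the same, *Klf2* (51.0) lay above *Esrrb* (38.1) without overlap, and *Prdm14* (21.1) overlapped *Tbx3* (21.6), so the span from highest to lowest narrowed to 22.1-fold.

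Chromatin-bound RNA, in which unfinished transcripts are enriched, gave another order. *Sox2*, a gene with a single exon, was first, with 101 and 226 counts in the 2 libraries, or 29.3 and 66.6 CPM (95% Clopper-Pearson intervals 23.9 to 35.7 and 58.2 to 75.9, for counting error only). Per kb it averaged 19.5 CPM, above 99% of the genes with RNA-seq values. *Zfp42* (11.1 per kb), *Klf2* (8.88), *Pou5f1* (8.72) and *Nanog* (7.77) followed. Below *Sox2* the order was not the same in the 2 libraries: per kb, *Pou5f1* had 8.26 and 9.19 CPM, *Zfp42* 8.07 and 14.1, and *Klf2* 6.72 and 11 CPM. *Prdm14* had 5 and 7 counts, or 1.45 and 2.06 CPM, and the interval of the first, 0.472 to 3.39, holds the second. All 10 members were higher in library 2, with a median log2 ratio of 0.71, beside 0.83 for the 5890 genes with at least 20 counts. The members held 474 and 831 counts of 3441643 and 3393923, and 79.8% of all counts lay in the 20 highest genes, so that these levels rest on few reads.

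**Figure D4:**
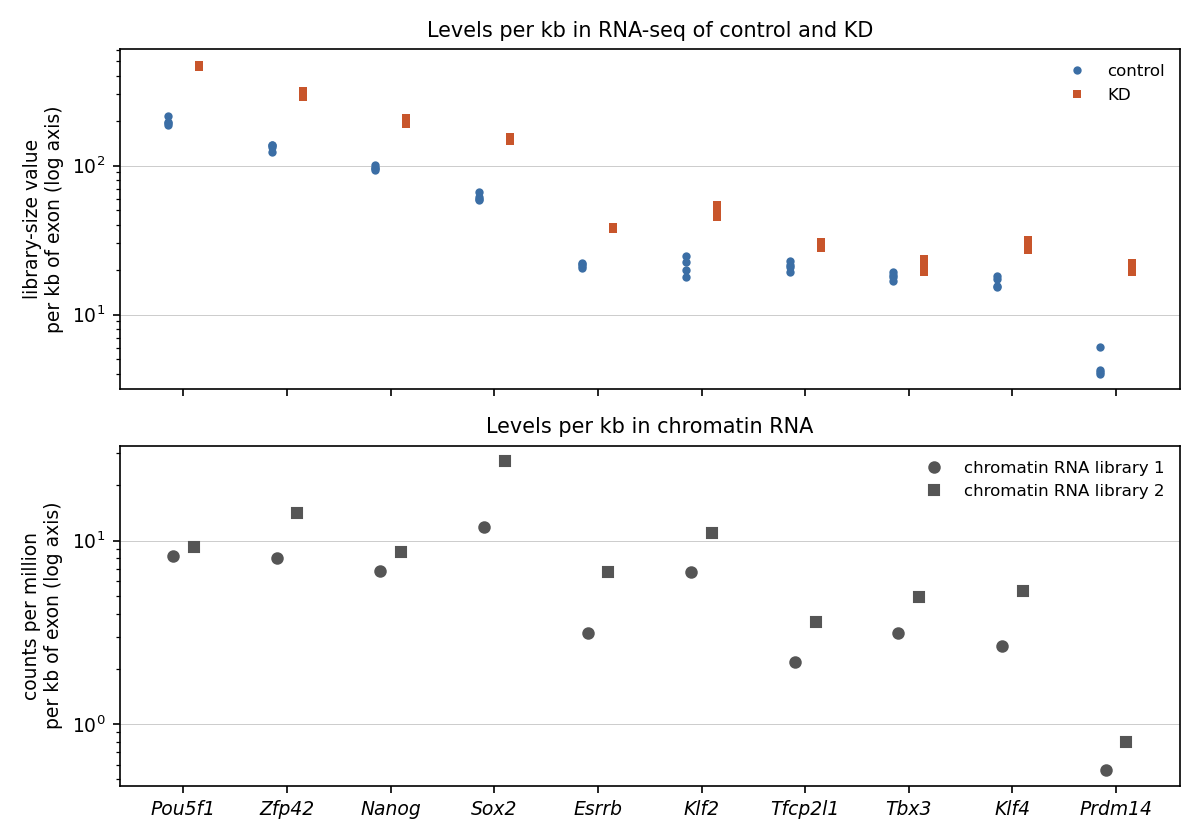
Level per kb of exon on log axes for the 10 genes in the order of control RNA-seq: library-size values of 4 control (circles) and 4 KD (squares) libraries in the upper panel, CPM of the 2 chromatin RNA libraries in the lower. *Sox2* takes place 4 in RNA-seq and place 1 in chromatin RNA, and *Prdm14* is last in both.

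The deposited tables of the authors' own comparisons also give a mean log2 expression per gene over all their libraries. After subtracting log2 of the exon length in kb, that mean put *Nanog* (7.77) and *Pou5f1* (7.61) first and *Prdm14* (3.07) last among the members in the table of KD and control. In the table of early neural progenitor cells (NPCs) and mESCs the order began with *Pou5f1* (6.90) and *Nanog* (6.81), and *Prdm14* was again last at 1.37. The NPCs were made from embryoid bodies with 1 µM retinoic acid for 4 days and 3 days without LIF. A mean over both groups has no direction, so no comparison was made from it.

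The next question was where FACT sat on these genes in mESCs. The authors prepared 2 ChIP replicates per subunit and deposited 1 peak list for each, so replicates cannot be compared here. The lists gave 62 SSRP1 peaks to the members, spread over 9 of the 10, where 36.0% of all genes had one. Of the 10, 7 had at least 5 SSRP1 peaks, beside 1.35% of all genes. The authors assigned each peak to the nearest gene, so a long or isolated gene can collect more. That share was not matched for gene span, which is 160512 bp for *Esrrb*, or for level. *Esrrb* had 22, and only 7 genes of the list had more. *Zfp42* had 8, among them one of 8036 bp (chr8:43286993-43295028, mm10) that begins 39 bp past the end of the gene and is exceeded in length by only 8 of the 10114 SSRP1 peaks. *Klf2* had 7, *Klf4* and *Tfcp2l1* 6 each, *Nanog* and *Tbx3* 5 each, *Pou5f1* 2 and *Prdm14* 1.

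A peak covered an annotated start in RefSeq of GRCm38, the assembly behind mm10, for 8 members, against 15.9% of all genes. Among the 10119 genes whose control level lay within the members' range, 40.3% had an assigned SSRP1 peak and 19.1% one across a start. The lists themselves give *Sox2* no peak. A SSRP1 peak of 392 bp at chr3:34649959-34650350 nevertheless covers the *Sox2* start at 34649995, and another of 490 bp lies 144 bp past the end of the gene. Both are listed under *Mir1897*, a microRNA gene. A further 3 SSRP1 peaks and 1 SUPT16 peak lie 105 to 115 kb downstream of that start, where a known *Sox2* enhancer cluster is found, and are listed under *Gm3143*. A count by assigned gene therefore misses *Sox2*.

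*Pou5f1* and *Prdm14* were the members without a SSRP1 peak at a start. The *Pou5f1* peaks lie upstream, at chr17:35502265-35502754 and chr17:35503833-35504616, with their near edges 3278 and 1416 bp before the first start. A further 3 SSRP1 peaks and 1 SUPT16 peak lie 3052 to 4718 bp past the end of *Pou5f1* and are listed under its neighbour *Tcf19*. The *Prdm14* peak, of 294 bp, lies 9456 bp past the end of the gene (chr1:13103679-13103972). The members called on library-size values had 8 (*Zfp42*), 7 (*Klf2*), 5 (*Nanog*), 2 (*Pou5f1*), 1 (*Prdm14*) and 0 (*Sox2*) assigned SSRP1 peaks. Those not called had 22 (*Esrrb*), 6 (*Klf4*), 6 (*Tfcp2l1*) and 5 (*Tbx3*). A link between the peaks and the differences in KD was not tested. At *Esrrb* the centre of the first peak lies 72336 bp from the most upstream start, and the one that covers a start (chr12:86487745-86488724) covers the last of 5 starts, 127 kb into the gene. At *Nanog* a peak of 2352 bp (chr6:122706977-122709328) covers both starts and part of the gene body. At *Klf4*, 3 of the 6 peaks lie 51245 to 55263 bp from the start, beyond the gene's end.

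Of the 62 peaks, 24 lay in introns, 13 downstream, 10 on exons, 8 across a start and 7 upstream. Of those 62, 5 overlapped a SUPT16 peak. SUPT16 peaks were given to 3 members, *Klf2*, *Zfp42* and *Tbx3*, where 18.6% of all genes had one. The *Klf2* peak of 2590 bp (chr8:72319031-72321620) runs from the start nearly to the end of the gene inside a SSRP1 peak of 3136 bp. The *Zfp42* peak (chr8:43300461-43301160) covers the most downstream of its 3 starts, and the 2 *Tbx3* peaks lie 8958 and 10008 bp after its last start. All 4 overlapped SSRP1 peaks.

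**Figure D5:**
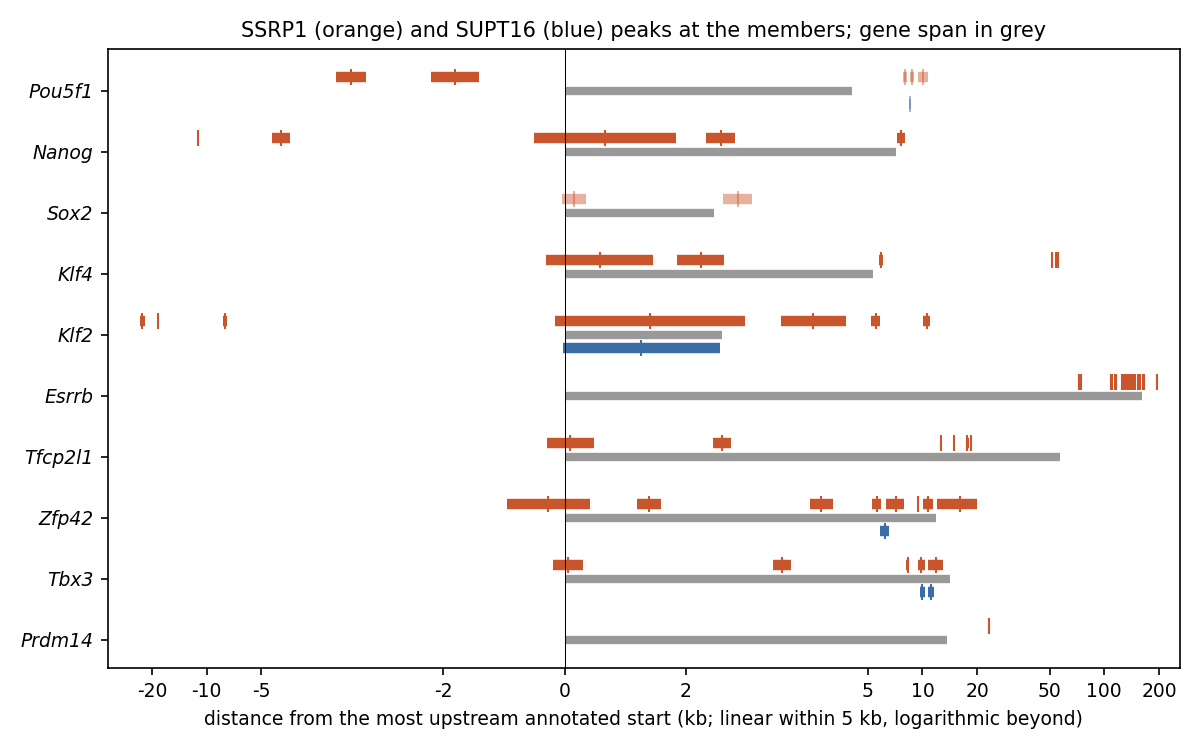
SSRP1 (orange) and SUPT16 (blue) peaks at the 10 genes by distance from the most upstream annotated start in kb, oriented with the gene, linear within 5 kb and logarithmic beyond; grey bars are the gene spans and pale peaks are listed under another gene. Peaks cross the first start of *Nanog*, *Sox2*, *Klf4*, *Klf2*, *Tfcp2l1*, *Zfp42* and *Tbx3* but not those of *Pou5f1*, *Esrrb* and *Prdm14*.

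Promoter sequences at annotated starts were read next, whether or not a peak lay over them. RefSeq (GRCm38.p6) held 11 promoter entries of 300 bases, from 250 before the start to 50 after it, for 8 members. *Tbx3* and *Prdm14* had no entry. They were searched on both strands for the letters bound by members of the network: the octamer of Oct4 (ATGCAAA), SOX (ACAAAG or ACAAT), ESRRB (AAGGTCA), KLF (CACCC or GGGCGTG) and STAT (TTC and GAA with any 3 bases between). The promoters below are those of the 3 members that hold an octamer, with that of *Tfcp2l1* for its KLF letters, that of *Klf4* as one wholly inside a peak, and that of *Pou5f1* as one outside any peak. Capitals mark every match.
Nanog, chr6:122707239-122707538, plus strand: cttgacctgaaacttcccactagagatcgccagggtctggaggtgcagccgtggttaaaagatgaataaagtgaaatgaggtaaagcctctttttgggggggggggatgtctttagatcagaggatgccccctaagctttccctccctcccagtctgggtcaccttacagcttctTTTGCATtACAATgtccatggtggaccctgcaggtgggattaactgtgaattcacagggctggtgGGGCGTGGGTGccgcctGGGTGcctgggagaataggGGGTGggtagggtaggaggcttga
Sox2, chr3:34649745-34650044, plus strand: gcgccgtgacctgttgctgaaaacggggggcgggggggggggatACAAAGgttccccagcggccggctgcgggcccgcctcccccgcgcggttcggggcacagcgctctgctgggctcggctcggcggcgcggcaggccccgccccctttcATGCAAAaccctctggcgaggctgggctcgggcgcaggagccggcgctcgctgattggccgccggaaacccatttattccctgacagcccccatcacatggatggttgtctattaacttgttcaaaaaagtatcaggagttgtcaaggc
Zfp42, chr8:43306960-43307259, minus strand: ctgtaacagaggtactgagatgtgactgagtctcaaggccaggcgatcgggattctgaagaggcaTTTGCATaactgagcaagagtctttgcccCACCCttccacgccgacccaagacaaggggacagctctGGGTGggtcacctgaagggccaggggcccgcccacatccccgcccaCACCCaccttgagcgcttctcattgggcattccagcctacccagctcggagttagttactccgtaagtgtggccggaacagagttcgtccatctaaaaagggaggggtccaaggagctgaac
Tfcp2l1, chr1:118627695-118627994, plus strand: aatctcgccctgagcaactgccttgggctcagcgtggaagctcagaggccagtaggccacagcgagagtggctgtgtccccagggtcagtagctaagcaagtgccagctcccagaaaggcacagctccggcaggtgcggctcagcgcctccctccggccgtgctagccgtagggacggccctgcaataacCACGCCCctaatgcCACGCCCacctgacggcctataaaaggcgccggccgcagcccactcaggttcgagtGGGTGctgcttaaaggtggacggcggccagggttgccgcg
Klf4, chr4:55532426-55532725, minus strand: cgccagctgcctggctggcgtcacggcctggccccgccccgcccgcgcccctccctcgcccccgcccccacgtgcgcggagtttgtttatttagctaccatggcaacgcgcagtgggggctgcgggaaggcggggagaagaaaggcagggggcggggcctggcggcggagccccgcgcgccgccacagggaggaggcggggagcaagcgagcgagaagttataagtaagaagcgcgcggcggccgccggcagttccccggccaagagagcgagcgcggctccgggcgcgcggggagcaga
Pou5f1, chr17:35505782-35506081, plus strand: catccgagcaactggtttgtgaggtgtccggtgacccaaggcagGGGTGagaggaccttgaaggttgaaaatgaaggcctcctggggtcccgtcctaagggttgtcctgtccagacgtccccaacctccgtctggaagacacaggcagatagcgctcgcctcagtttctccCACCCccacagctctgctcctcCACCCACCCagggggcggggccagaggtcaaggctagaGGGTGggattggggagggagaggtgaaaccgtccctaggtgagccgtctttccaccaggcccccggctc

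The *Nanog* promoter holds an octamer and a SOX match separated by 1 base, TTTGCATtACAAT, at chr6:122707414-122707426. The pair begins 75 bp before the first start and 151 bp before the second, inside the SSRP1 peak. Of all 32851 RefSeq promoters, 0.134% hold an octamer and a SOX match at most 3 bases apart. The octamer of *Sox2* begins 99 bp before its start and that of *Zfp42* 185 bp before. In *Sox2* 86 of the 300 bases lie in the peak, and the octamer lies outside it. Counted over entries, of which the 2 of *Nanog* overlap, 4 of 11 held an octamer, beside 4.63% of all promoters.

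The KLF letters were in 9 of 11 entries and in 60.5% of all promoters. *Tfcp2l1* carries the longer form (CACGCCC as read here) 60 and 46 bp before its start. The *Pou5f1* promoter printed above has 5 KLF matches and no octamer or SOX match, while the entry at its other start holds a SOX and a KLF match, and *Klf4* has no match to any of the motifs. SOX letters were in 5 of 11 entries and 42.9% of all promoters, STAT in 1 of 11 and 8.30%, and ESRRB in 0 of 11 and 4.72%. At the 300 bases around the centres of 64 SSRP1 peaks of the members, with the 2 at *Sox2* included, the octamer was in 2, beside 3.55% of all SSRP1 peak centres. SOX was in 23 (36.2% of all), ESRRB in 2 (6.09%), KLF in 44 (64.7%) and STAT in 4 (6.23%), and the members' shares were 3.12% for the octamer, 35.9% for SOX, 3.12% for ESRRB, 68.8% for KLF and 6.25% for STAT.

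Beyond the 10 factors, 19 genes of the wider mESC network were examined. Of these, 6 were called higher and 0 lower, with a median log2 difference of 0.76, and 13 were not called. Over all genes, 8.07% were called higher and 20.6% lower. *Tdgf1*, the Nodal co-receptor Cripto, had 139 to 165 in control and 720 to 813 in KD (5.28-fold, SE 0.06 on the log2 scale, limma adjusted p = 7.7e-22). *Tcl1*, a co-activator of Akt, had 18.2 to 20.8 and 67.1 to 79.8, a difference of 1.87 ± 0.08. *Fgf4*, a growth factor that drives exit from the naive state, had 67.2 to 81.8 and 206 to 216, a difference of 1.53 ± 0.06. Of the 10 genes of the formative and primed states, 7 had values. *Tcf15* (2.05 ± 0.11) and *Otx2* (1.16 ± 0.12) were called higher and *Cdh2* (-2.45 ± 0.23) lower, with a median of 0.46.

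Markers of other cell types were read beside the members, as log2 differences and as summed library-size values per library. On library-size values, 20.6% of all genes were called lower and 8.07% higher. Among the 13062 genes with a mean value of at least 5, 15.5% were called lower and 9.19% higher. Genes of low value were thus called lower more often, and several markers below are low. The shares were not matched to the markers for level. Of the 5 fibroblast markers, 3 were called lower: *Col3a1* (-2.63), *Col1a1* (-2.58) and *Col1a2* (-2.05), all collagens. The 5 summed to 58.5 to 76.6 in control and to 22.7 to 25.7 in KD. Of 7 primitive endoderm markers with values, 4 were called lower, among them *Sox7* (-2.20), *Gata6* (-1.89) and *Gata4* (-1.50), with sums of 196 to 207 and 130 to 148. Of 4 mesoderm markers with values, *Kdr* (-2.67), *Mesp1* (-1.62) and *Tbx6* (-1.43) were called lower, with sums of 19.2 to 31.8 and 4.63 to 6.55. Of 7 trophectoderm markers with values, *Hand1* (-1.73), *Cdx2* (-1.62) and *Gata3* (-1.17) were called lower. The 7 had sums of 985 to 1325 and 766 to 813. The control means of *Hand1*, *Cdx2* and *Gata3* were 10.9, 4.99 and 10.5, so most of these sums came from markers not called. Of 5 neural markers with values, *Pax6* (-1.46) and *Map2* (-1.22) were called lower and *Tubb3*, a tubulin, higher (1.69), with sums of 83.7 to 107 and 145 to 156. *Tubb3* alone had a mean of 33.6 in control and 108 in KD. In KD, *Col1a1* was still at 2.53 to 4.28 and *Gata6* at 5.31 to 6.92. *Sox7* was at 0.53 to 1.16, *Mesp1* at 0.23 to 1.23, *Col3a1* at 0.74 to 1.29 and *Cdx2* at 0.52 to 2.10 there. The differences of these genes rest on few KD reads. *T*, *Mixl1*, *Elf5*, *Foxa2*, *Fgf5*, *Lef1* and *Sox3* have no row in the table of values used here. The part of these markers in the members' differences was not tested. In the spike-in scaling the lineage lists had 1, 1, 0 and 0 genes called lower for primitive endoderm, mesoderm, trophectoderm and neural, and the fibroblast list 3. Over all genes 7.03% were called lower in that scaling.

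The genes whose pattern over the 8 libraries was most like the mean of the members were *Senp3*, a SUMO protease (Pearson r = 0.9993), *Parp1*, a poly(ADP-ribose) polymerase (0.9992), *Dido1* (0.9992), *Bcat1*, an aminotransferase of branched-chain amino acids (0.9990), and *N4bp3* (0.9989). The 8 points share the step between the groups. Within the groups r was 0.79 to 0.89, and 600 genes had an r above 0.99.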

How the data were processed

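RNA-seq reads of the spike-in set were aligned by the authors to mm10 with STAR and counted per gene with featureCounts, keeping genes above 1 CPM. They deposited, per gene and library, a signal scaled to library size and a signal scaled to ERCC spike-in RNA. Chromatin RNA is deposited as a raw count per gene. Deposited log2 average expression comes from the authors' limma tables, whose fold changes, p-values and FDRs were not used, nor was their exon table. From Bowtie2 alignments of 2 ChIP replicates per subunit the authors called peaks with PePr, 1 list per subunit, and assigned them to genes with ChIP-Enrich. The strand setting of the counting is not known here.

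Reads were recovered from the step between values (100% whole within 0.1). On either scaling, limma 3.58.1 with a mean-variance trend was fitted to log2(value + 0.5) of all 15384 genes, with Benjamini-Hochberg adjustment. Genes were called at an absolute log2 difference above 1 with adjusted p under 0.01. Recovered reads also went into edgeR 4.0.16 and DESeq2 1.42.0, and other scalings, pseudocounts and filters were tried. On simulated counts of 15384 genes with 200 changed 4-fold, each of limma, edgeR and DESeq2 recovered 100% with 0 false calls. The simulation held no shift between scalings and no exon length trend, so it does not test calls that move with these. Exon length was corrected by loess. Python 3.11.15 and R 4.3.3 were used. Replicates differed by more than sampling noise (chi-square over its degrees of freedom, 1.88 to 6.62), so none was a repeat deposit. Replicate numbers gave no pairing.

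Named were all 10 members, both FACT genes, the called genes with the 3 largest differences in each direction of every other list, and the 5 genes most like the members by r. The genes without a row were named after the values were seen. The members and the lists were chosen with earlier results of these data known. *Pou5f1*, *Nanog* and *Zfp42* have pseudogene copies in RefSeq, *Sox2* lies within *Sox2ot*, and *Tbx3* overlaps *Tbx3os1*, so reads may be shared and these values are less certain.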

Additional observations from a re-analysis of the deposited data

Results flagged for a closer look

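In groups of 4 libraries, 1 library can lie far from the other 3 relative to the group's range. By this measure, 1 of 20 groups stood out on library-size values: control replicate 2 had 15.83 for *Prdm14*. On spike-in values, 5 of 20 groups did, all through control replicate 4: 248.7 for *Pou5f1*, 128.3 for *Sox2*, 39.91 for *Klf2*, 91.93 for *Esrrb* and 83.97 for *Tbx3*. Chance marks about 1 in 20 groups, and the 5 share 1 scaling factor, so they are not independent. In that library the spike-in value was 0.895 of the library-size value, against 0.598 to 0.672 in the other control libraries. Without control replicate 4, all 10 members were called higher on spike-in values.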

How the results depend on the processing

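The same 6 members stayed called under TMM factors, DESeq2 size factors, both pseudocounts, the filter, edgeR, DESeq2, no trend and each library left out (6 to 6). The count of members called moved to 10 with spike-in scaling, 2 with quantile normalisation, 1 in CPM (added after seeing the data), 10 with the adjusted p alone and 8 with the exon length correction. The shares of all genes called higher were, in that order, 48.1%, 9.87%, 2.23%, 35.4% and 8.80%. All genes called higher moved from 1242 to 7394 with spike-in scaling, 343 in CPM and 5447 with the adjusted p alone. All genes called lower moved from 3163 to 1082 with spike-in scaling, 1656 with quantile normalisation, 2024 with the filter and 5745 with the adjusted p alone. Of 220 member values under alternatives, 217 were positive. The adjusted p alone, the fit without trend and the replicate block leave the main log2 differences unchanged, so their signs could not differ. The reversed values were *Tfcp2l1* (-0.08) and *Tbx3* (-0.10) with quantile normalisation and *Tbx3* (-0.18) in CPM, and the cause was not tested. Replicate numbers did not pair the libraries (correlations of same-numbered deviations -0.057 to 0.018), and the replicate block gave 6 members, 1242 genes higher and 3163 lower. Left-out libraries gave 28 to 34 pairs called of 45, and all 10 members on spike-in values. With RefSeq exon lengths, 5 of 10 members kept their place in the order, and *Nanog* and *Sox2* changed places. A SSRP1 peak within 1000 bp of a start was found for 8 members, beside 26.0% of all genes. A SUPT16 peak was found there for 2 of 10 members, near the 15.6% of all genes.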
